A study of Eriocheir sinensis with 6 samples.

Results

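Of the 21314 annotated genes of the Chinese mitten crab (Eriocheir sinensis) in the expression table, 3202 were intronless, that is, their exon length equalled their whole span on the assembly. The 200 of them with the highest mean RNA level were examined here, after 8 intronless genes among the 100 most abundant annotated genes of any kind had been set aside. The other 2994 intronless genes, and the spliced genes of like RNA level, served for comparison. The table listed 28671 genes in all, and the genes added to the annotation by read assembly were not used as members.

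The samples were walking-leg muscle of 3 juvenile male crabs (Mu_E_1, Mu_E_2 and Mu_E_3), wild type and untreated, taken in the molt period, when the old exoskeleton is shed. Each muscle sample came from 1 crab and was divided for 1 ATAC-seq and 1 RNA-seq library, 6 libraries in all. The sample titles give the period as E, whereas the design text of the deposit names a D stage. The files hold 1 condition only, so the comparisons below are between groups of genes, measured in each of the 3 crabs. The labelled tissue could not be checked against muscle markers, because the files used here pair no gene ID with a gene name, and for the same reason no function is given for any gene and no sequence is shown.

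In animal genomes most protein-coding genes are interrupted by introns, which are spliced out of the transcript before translation. Genes without introns include the replication-dependent histones, many heat shock genes and copies that arose through reverse transcription of spliced transcripts, and copies of the last kind are often silent. ATAC-seq marks DNA that the Tn5 transposase can reach in the nucleus, and the promoters of active genes are commonly accessible, so a peak at the start of an intronless gene is a measurement made independently of its RNA.

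The RNA level was given as FPKM, a fragment count scaled for exon length and sequencing depth. Multiplying a value by the gene length gave whole steps in every library, and 7088747, 7524721 and 7788537 fragments were recovered in Mu_E_1, Mu_E_2 and Mu_E_3. The total that the deposited values had been divided by was 0.573, 0.514 and 1.43 times these sums, so a difference between crabs depends on the scale. FPKM values are given as deposited unless they are called recomputed, which means scaled to the fragments recovered in each library. The ATAC-seq libraries had 52473, 44610 and 49831 peaks, called by the authors in each sample separately.

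The 200 genes had been chosen by their mean FPKM, so their levels are a description. Mean FPKM ran from 34.2 to 1554 with a median of 75.7. It reached at least 500 in 14 genes and at least 100 in 69, and it was below 50 in 59. The medians of the 200 in Mu_E_1, Mu_E_2 and Mu_E_3 were 81.5, 80.5 and 51.8 FPKM (71.3 ± 16.8, SD, n = 3 crabs). The set therefore lies in the upper part of the muscle transcriptome. The other intronless genes had a median of 0 in every library, and 46.3% of them were at 0 in all 3. Together the 200 genes took 2.07%, 2.01% and 2.1% of the fragments on all genes, against 0.495%, 0.441% and 1.05% for the 2994 other intronless genes. In fragments, the median gene of the set had 212.5, 192.5 and 347, and 195 of the 200 genes had at least 10 fragments in every library.

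At the lower bound, evm.TU.CM024101.1.279 was the last gene inside, with 32.0, 54.9 and 15.7 FPKM in Mu_E_1, Mu_E_2 and Mu_E_3, and evm.TU.CM024120.1.210 was the first outside, with 67.6, 15.5 and 19.2 FPKM. Their means were 34.2 and 34.1, so the bound does not part different levels. At the upper bound, the least abundant of the 100 genes set aside, evm.TU.CM024134.1.395, had a mean of 1560 FPKM, next to 1554 for the first gene of the set.

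**Figure D1:**
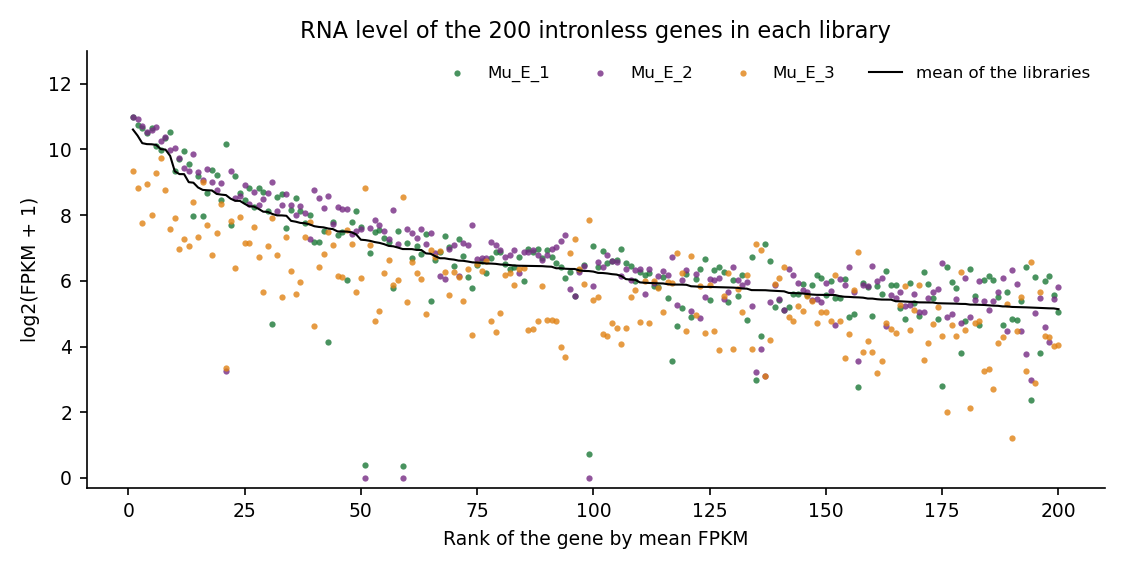
The plot gives log2(FPKM + 1) of each of the 200 intronless genes against its rank by mean FPKM, with 1 point per library (Mu_E_1 green, Mu_E_2 purple, Mu_E_3 orange) and a line for the log2 of the mean. The mean falls from 1554 to 34.2 FPKM, most Mu_E_3 points lie below the line on this deposited scale, and 3 genes stand near 0 in Mu_E_1 and Mu_E_2 while high in Mu_E_3.

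Of the 10 highest genes, 4 formed a cluster on 1 strand, evm.TU.CM024136.1.358 to evm.TU.CM024136.1.361, which filled 3912 bp (positions 13071076 to 13074987 of sequence CM024136.1) with gaps of 275, 31 and 114 bp between them. evm.TU.CM024136.1.361, of 333 bp, had 2006, 2012 and 644 FPKM in Mu_E_1, Mu_E_2 and Mu_E_3. evm.TU.CM024136.1.359, of 1008 bp, had 1444, 1488 and 494 FPKM. evm.TU.CM024136.1.358, of 1893 bp, had 1101, 1647 and 622 FPKM, and evm.TU.CM024136.1.360, of 258 bp, had 1303, 1318 and 432 FPKM. As deposited all 4 were lowest in Mu_E_3. On the recomputed scale evm.TU.CM024136.1.358 was highest there, with 631, 847 and 891 FPKM, and the other 3 stayed lowest there by a small margin, for example 1150, 1034 and 923 FPKM for evm.TU.CM024136.1.361. The annotated genes on either side of the cluster were at 1.36 to 6.10 FPKM in all 3 crabs. The cluster had called peaks in every ATAC-seq library, but these were weak. The strongest summit there had a fold enrichment over the local background of 1.99 in Mu_E_1, 1.81 in Mu_E_2 and 1.84 in Mu_E_3.

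Of the other genes among the 10 highest, some stood close to another abundant gene. evm.TU.CM024097.1.125, of 408 bp, had 1714, 1934 and 452 FPKM, and the spliced gene 544 bp upstream of it on the same strand had 1146, 1160 and 244 FPKM. evm.TU.CM024149.1.22, of 2163 bp, had 1606, 1676 and 215 FPKM, and its upstream spliced neighbour, 294 bp away, had 1546, 1380 and 196 FPKM. In both pairs both genes were lowest in Mu_E_3, and the 2 intronless genes were so on the recomputed scale too. evm.TU.CM024127.1.389, of 978 bp, had 1608, 1551 and 258 FPKM while the spliced gene 136 bp upstream had only 4.25, 3.79 and 1.59 FPKM. This gene had a peak over its start base in all 3 libraries. Its strongest summit lay at -173, -176 and -1099 bp (negative is upstream), beyond the gap of 136 bp to the upstream gene. Whether the accessible site belongs to this gene was not tested. Downstream of evm.TU.CM024127.1.389, evm.TU.CM024127.1.388, of 4909 bp, had 841, 855 and 124 FPKM and no peak over its start.

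One of the 10 stood far from other genes. evm.TU.CM024109.1.15, of 279 bp, had 642, 1049 and 239 FPKM with the nearest genes 49685 bp upstream and 62160 bp downstream, and its strongest summit lay at 212 to 223 bp from its start (positive is downstream, negative upstream) with fold enrichments of 3.89, 4.73 and 4.0. evm.TU.CM024147.1.489, of 939 bp, had 1474, 1008 and 190 FPKM, and its nearest upstream gene was 43016 bp away, but evm.TU.CM024147.1.488, another of the 200, followed 34 bp downstream with 979, 683 and 155 FPKM. The strongest summit in its promoter window lay at -635 to -618 bp, with fold enrichments of 9.71, 10.03 and 9.21. evm.TU.CM024135.1.403, of 1137 bp, had 1005, 1221 and 856 FPKM and the spliced gene 41 bp upstream had 309, 443 and 252 FPKM. As deposited it had the smallest spread of the 10 highest, with an SD of 0.26 on the log2(FPKM + 1) scale, but on the recomputed scale its SD was 0.60 and its values were 576, 628 and 1226 FPKM. A peak reached its promoter in 2 libraries, but no summit lay within 2 kb of its start in any.

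The genes were short. Their median length was 490.5 bp, from 150 bp (evm.TU.CM024097.1.339, with 62.3, 79.3 and 51.4 FPKM) to 5887 bp (evm.TU.CM024162.1.233, with 104, 124.7 and 26.8 FPKM), and 101 of the 200 were under 500 bp. The other intronless genes had a median of 663 bp, and the 1478 spliced genes within the same range of mean FPKM had a median exon length of 1188 bp over a median span of 9976 bp. The length was a multiple of 3 in 172 of the 200 genes (86%), against 83% of the other intronless genes, 68.7% of the spliced genes in range and 73.3% of all annotated genes. A length divisible by 3 is what a coding sequence without untranslated ends would have, and the sequences were not examined. The start used here is that of the gene model. Among the 200, 114 were on the minus strand (57%), against 49.2% of all annotated genes. They were spread over 64 sequences, all of them numbered chromosomes, with at most 9 on 1 of them.

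The first comparison asked whether these abundant intronless genes have accessible starts, as spliced genes of like RNA level do. The promoter was taken as 2 kb on each side of the annotated start. A peak touched it in 123 of the 200 genes in Mu_E_1, 105 in Mu_E_2 and 125 in Mu_E_3, which was 61.5%, 52.5% and 62.5%. Over all annotated genes the share was 35.7%, 33.4% and 35.7%. The share of the 200 was thus well above that of all annotated genes in each crab.

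Against the other intronless genes the difference was large. Their share was 25.6%, 20.6% and 23.5% (23.2 ± 2.52, SD, n = 3), and the 200 genes were higher by 35.9, 31.9 and 39.0 percentage points (35.6 ± 3.52). The difference had the same sign in 3 of 3 crabs and was about as large in each. The exact two-sided permutation test over the 3 libraries gave p = 0.25, which is the smallest p that 3 libraries allow. Each further difference between peak shares below that has an SD over the 3 libraries also had an exact permutation p = 0.25.

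Against spliced genes of like FPKM the difference was smaller and in the other direction. The share of these genes, averaged over 10 bins of mean FPKM that each held 20 of the 200 genes, was 63.5%, 60.3% and 65.1% (63.0 ± 2.41). The 200 genes, at 58.8 ± 5.51%, differed from them by -1.99, -7.82 and -2.56 percentage points in the 3 crabs (mean -4.12 ± 3.22, exact permutation p = 0.25). The spread between crabs was nearly as large as this difference, and without Mu_E_2 it was -2.27. Among genes with no start of another listed gene within 4 kb, the difference was -9.70 ± 6.06. Mu_E_2 had the fewest peaks, and the paper reports the fewest mapped ATAC-seq reads for it. Whether depth accounts for its lower share was not tested.

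At the start base itself the gap to the spliced genes was wider and steadier. A peak covered the first base of 65, 65 and 70 of the 200 genes in Mu_E_1, Mu_E_2 and Mu_E_3, which was 32.5%, 32.5% and 35.0%. The share was 19.8%, 18.9% and 20.9% over all annotated genes. In the spliced genes of like FPKM it was 40.4%, 39.7% and 43.9%, and the 200 genes differed from these by -8.01 ± 0.812 percentage points in the mean of the 3 crabs. In the other intronless genes it was 7.20 ± 0.805%, and the 200 were higher by 26.1 ± 1.34 percentage points. Within 500 bp of the start the 200 genes had a peak in 43.8 ± 4.04% and the spliced genes in 50.4 ± 1.78%. These starts are those of the gene models, and how far they lie from where transcription begins was not tested in either group.

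**Figure D2:**
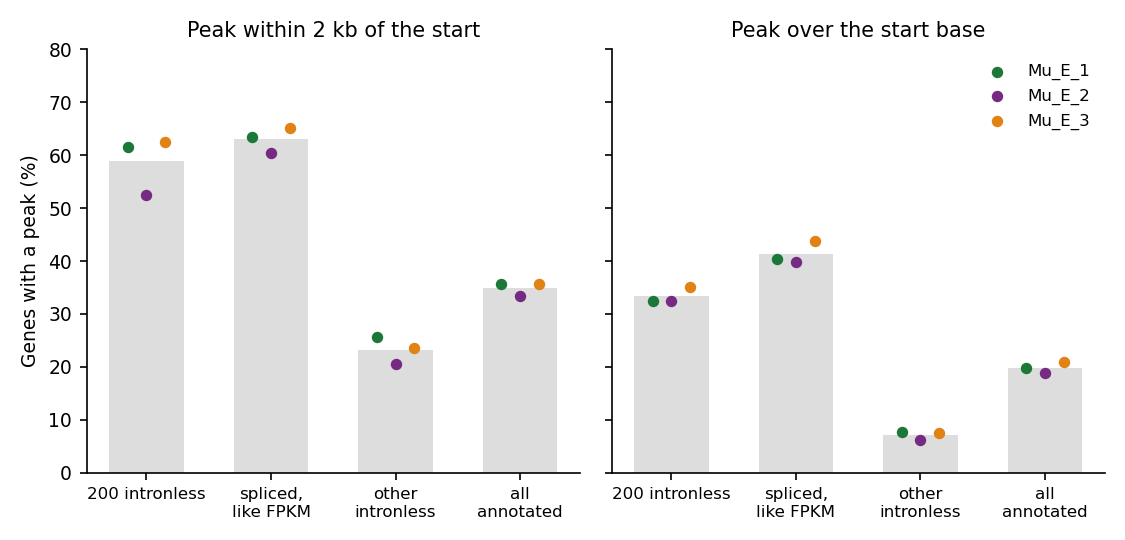
The bars give the mean share of genes (%) with a peak within 2 kb of the start (left) and over the start base (right) for the 200 intronless genes, spliced genes of like FPKM, the other intronless genes and all annotated genes, and the points give the 3 libraries. The 200 genes stand at 58.8% and 33.3%, far above the other intronless genes at 23.2% and 7.20%, and below the spliced genes at 63.0% and 41.3%.

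The same genes tended to be marked in every crab. A promoter peak was called in all 3 libraries for 98 of the 200 genes (49%), in 2 for 23, in 1 for 13 and in none for 66 (33%). Over all annotated genes the share with a peak in 3 libraries was 28.6% and the share with none was 58.0%. For the spliced genes of like FPKM these shares were 54.9% and 28.7%. At the start base 56 of the 200 genes (28%) had a peak in all 3 libraries, against 15.9% of all annotated genes and 35.2% of the spliced genes of like FPKM.

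Where a promoter peak was called, its height was compared with that of other genes. Fold enrichment is the ratio of the ATAC-seq pileup at a summit to the local background that the peak caller estimated. Its median over the strongest peak of each gene was 4.56, 5.77 and 4.73 in the 3 crabs, and it was 5.44, 5.77 and 5.95 in the spliced genes of like FPKM. The 2 groups were level in Mu_E_2, and the intronless genes were lower in Mu_E_1 and Mu_E_3. The values of the 200 ran from 1.59 to 12.3. Over all annotated genes with a promoter peak the medians were 4.91, 5.34 and 5.27.

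The 5 genes with the strongest promoter peaks had moderate RNA levels. evm.TU.CM024120.1.62, of 240 bp, had fold enrichments of 12.3, 10.5 and 11.8, with the summit at -90 to -86 bp from its start, and 130, 124 and 46.3 FPKM. evm.TU.CM024138.1.106, of 880 bp, had 10.2, 11.4 and 10.4 with the summit at -112 to -101 bp, and 119, 84.0 and 19.8 FPKM. evm.TU.CM024166.1.245, of 179 bp, had 10.2, 10.7 and 10.2 with the summit at -143 to -137 bp, and 57.7, 46.2 and 22.04 FPKM. These summits kept nearly the same place in the 3 crabs. evm.TU.CM024164.1.307, of 1218 bp, had 10.4, 9.0 and 10.1 at -289 to -262 bp, and 45.7, 42.02 and 25.4 FPKM. evm.TU.CM024119.1.289, of 863 bp, had 8.92, 9.02 and 11.3 with the summit inside the gene, at 135 to 169 bp from its start, and 75.9, 53.3 and 114 FPKM. It was highest in Mu_E_3 on both scales, and evm.TU.CM024164.1.307 was so on the recomputed scale, with 26.2, 21.6 and 36.4 FPKM.

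At the other end, 66 genes had no promoter peak in any library, and some of them were abundant. evm.TU.CM024100.1.216, of 717 bp, had 758, 644 and 132 FPKM, and evm.TU.CM024100.1.217, of 1107 bp, which lies 146 bp upstream of it on the same strand, had 666, 511 and 109 FPKM. The spliced gene 583 bp further upstream had 388, 210 and 41.5 FPKM. evm.TU.CM024150.1.267, of 2025 bp, had 592, 430 and 174 FPKM with the nearest upstream gene 25286 bp away. All 3 genes without a peak were lowest in Mu_E_3 on the deposited scale, like most of the set. On the recomputed scale evm.TU.CM024150.1.267 was lowest in Mu_E_2, with 340, 221 and 249 FPKM.

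Within the 200, the promoter share did not rise evenly with RNA level. From the lowest to the highest of 5 groups by mean FPKM (40 genes each) it was 60 ± 6.61%, 45 ± 5%, 56.7 ± 3.82%, 60.8 ± 6.29% and 71.7 ± 8.04%. The second of these groups was the lowest and the last the highest in each crab. At the start base the last group stood at 30.8 ± 2.89% and the first at 39.2 ± 3.82%, so the order differed from that of the wider window. In 4 groups of 50 by length, the share with a peak over the start base was 43.3 ± 1.15%, 27.3 ± 2.31%, 38.7 ± 2.31% and 24 ± 2% from the shortest to the longest, which is no steady trend.

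The position of the summits around the starts was described by their density per kb and per 1000 starts. Within 500 bp of the start it was 722 ± 65.3 in the 200 genes, 771 ± 44.9 in the spliced genes of like FPKM and 164 ± 21.0 in the other intronless genes (SD, n = 3). Between 2 and 3 kb away it was 198 ± 28.8 in the 200 and 128 ± 14.5 in the spliced genes. The density near the start was therefore 3.66 ± 0.208 times that farther away in the 200 genes and 6.05 ± 0.436 times in the spliced genes. In the other intronless genes this ratio was 2.49 ± 0.082, and over all annotated genes it was 5.29 ± 0.192. The 250 bp bin with the most summits lay just upstream of the start in the 200 genes (867) and just downstream of it in the spliced genes (1062). Around the 3′ ends the density within 500 bp was 502 ± 34.0 in the 200 genes and 124 ± 21.4 in the spliced genes. With a median length of 490.5 bp, the windows at the start and at the end of most of the 200 genes overlap.

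**Figure D3:**
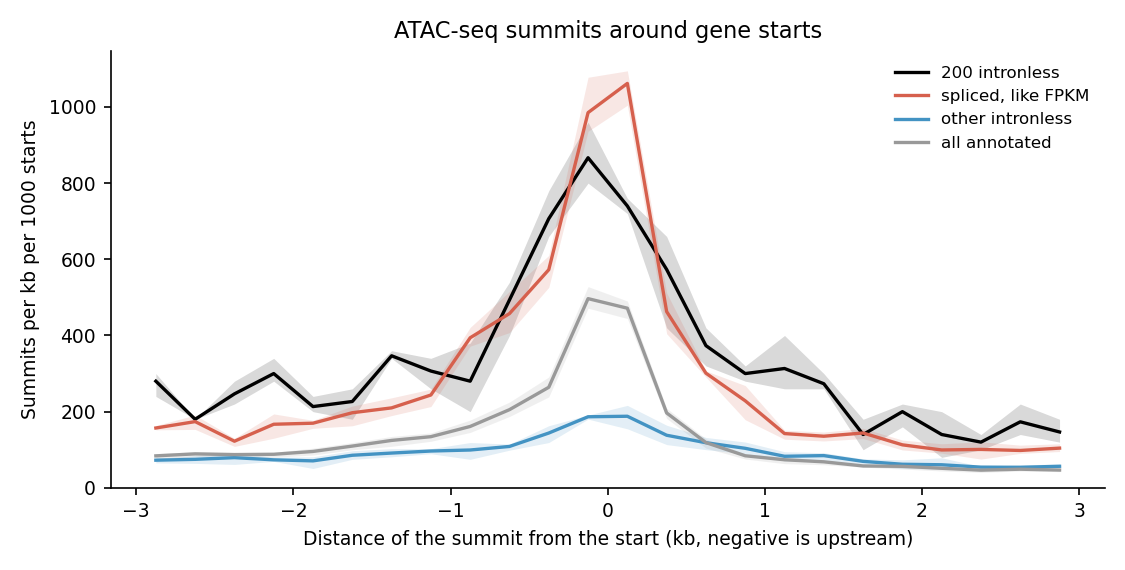
The lines give the mean over 3 libraries of the ATAC-seq summit density (summits per kb per 1000 starts) in bins of 250 bp from 3 kb upstream to 3 kb downstream of the start, and the bands run from the lowest to the highest library. The 200 intronless genes rise to 867 just upstream of the start, the spliced genes of like FPKM to 1062 just downstream, and the other intronless genes stay low.

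A feature that the choice of the genes did not use was their closeness to other genes. Another annotated gene lay within 1 kb of either end of 133 of the 200 genes (66.5%), against 48.1% of the other intronless genes, 43.4% of the spliced genes of like FPKM and 38.8% of all annotated genes. The excess was mostly on 1 side and 1 strand. A gene on the same strand lay within 1 kb upstream of 85 of the 200 (42.5%), against 26.4% of the other intronless genes, 16.1% of the spliced genes of like FPKM and 14.9% of all annotated genes. A same-strand gene within 1 kb downstream was found for 50 (25%). This share was 20.0% in the other intronless genes, 15.5% in the spliced genes of like FPKM and 14.9% in all annotated genes. An opposite-strand gene within 1 kb downstream was found for 22 (11%), against 5.51%, 7.55% and 5.76% in these groups. An opposite-strand gene within 1 kb upstream, the arrangement of a shared divergent promoter, was found for 4 (2%), against 3.78% of all annotated genes. The median gap to the next gene upstream was 1674 bp for the 200, 5587 bp for spliced genes in range and 8781.5 bp for the other intronless genes. These are counts over 1 annotation, so they have no replicate error.

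The upstream neighbours of these 85 genes were themselves abundant. Their median mean FPKM was 73.1, and in 61 of the 85 pairs (71.8%) the 2 genes lay within 1 of each other on the log2(FPKM + 1) scale. Of the neighbours, 60 were spliced and 25 intronless, 19 of the latter being among the 200, and the median gap was 176 bp. Of the 234 spliced genes in range that had such an upstream neighbour, 141 (60.3%) were within 1 of it. For the difference in log2 level between Mu_E_3 and Mu_E_1, the median absolute gap within the pairs was 0.26, and 0.31 for the pairs of the spliced genes. With opposite-strand upstream neighbours this gap was 0.82 in 4 pairs of the 200 and 0.76 in 58 pairs of the spliced genes. Genes from different places were not compared. The strand setting of the read counting is not given in the sources used here, and whether the members of a pair are separate transcripts was not tested.

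Single pairs show the range. evm.TU.CM024159.1.150 had 582, 630 and 160 FPKM and the spliced gene 41 bp upstream 632, 684 and 182 FPKM. evm.TU.CM024164.1.147 had 250, 540 and 513 FPKM and the spliced gene 52 bp upstream 300, 497 and 383 FPKM. In the first pair Mu_E_3 was lowest in both genes and in the second Mu_E_1 was lowest in both. These 2 pairs and the next were singled out after their values were seen. evm.TU.CM024166.1.330 differed from its neighbour, with 199, 188 and 66.7 FPKM against 21.9, 50.3 and 1.59 FPKM for the spliced gene 228 bp upstream, and it had a peak over its own start in all 3 libraries.

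Start accessibility differed between genes with and without such a neighbour. A peak covered the start base in 21.2 ± 2.04% of the 85 genes with a same-strand neighbour within 1 kb upstream and in 42.3 ± 2.19% of the 115 without, a difference of 21.1 ± 3.16 percentage points with the same sign in 3 of 3 crabs. In the spliced genes of like FPKM the shares were 13.1% and 46.8%, a difference of 33.7 ± 0.541. Of the genes without an upstream neighbour, the 200 differed from the spliced genes by -4.49 ± 1.6 percentage points, and of the genes with one by 8.09 ± 1.41. The difference of -8.01 percentage points at the start base between all 200 genes and the spliced genes was smaller among genes without a neighbour. It was reversed among genes with one. The spliced genes were averaged here over the bins of all 200 genes. The 85 genes had a median mean FPKM of 81.1 and the 115 had 60.9, so FPKM was not matched within each group. Within 2 kb, the share was 49.8 ± 6.48% with and 65.5 ± 4.79% without a neighbour.

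**Figure D4:**
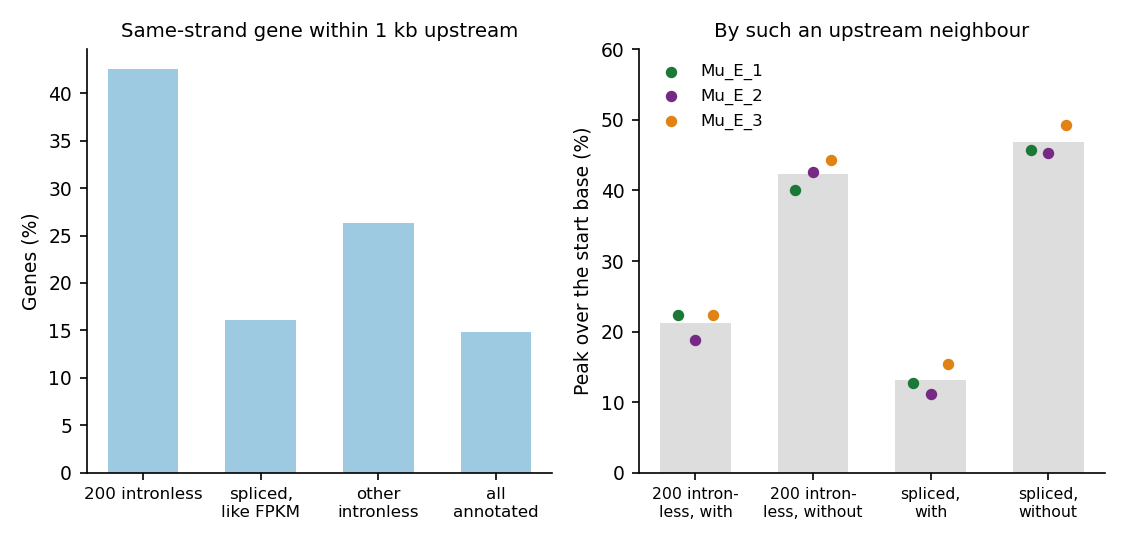
On the left, the bars give the share of genes (%) with a same-strand annotated gene within 1 kb upstream in the 4 groups of genes, highest for the 200 intronless genes at 42.5%. On the right, the bars give the mean share of genes (%) with a peak over the start base, with and without such a neighbour. The points give the 3 libraries. The shares were 21.2% and 42.3% for the 200 intronless genes. They were 13.1% and 46.8% for spliced genes of like FPKM, averaged over the bins of all 200 genes.

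Some of the 200 genes were neighbours of each other. There were 23 runs of adjacent genes of the set, which held 54 of the 200, and 18 of the runs had 2 genes and 5 had 3 or more. All genes lay on 1 strand in 19 runs, and all gaps were within 1 kb in 18. The median range within a run of the log2 difference between Mu_E_3 and Mu_E_1 was 0.36. The SD of that difference over all 200 genes was 1.92. An SD is not a like measure, and single genes widen it, with 8.42 for evm.TU.CM024142.1.179. Pairs of genes from different places were not compared, so whether adjacent genes vary together more than others was not tested. evm.TU.CM024098.1.374 had 24.97, 518 and 240 FPKM and its neighbour evm.TU.CM024098.1.375 had 16.6, 382 and 177 FPKM, both lowest in Mu_E_1. evm.TU.CM024149.1.17 and evm.TU.CM024149.1.18 did not share a pattern, with 5.90, 91.4 and 19.0 FPKM against 413, 359 and 49.8 FPKM. These 2 runs were also singled out after their values were seen.

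The 5 longer runs differed in their peaks. The genes evm.TU.CM024097.1.117, evm.TU.CM024097.1.118 and evm.TU.CM024097.1.119 lay within 1100 bp, and 1 peak in each library covered nearly all of them. The strongest summit lay at -76, -67 and -71 bp from the start of evm.TU.CM024097.1.117, with fold enrichments of 5.96, 7.01 and 5.67. In the order of the genes, their levels were 220, 212 and 137 FPKM, then 134, 158 and 74.1 FPKM, and 403, 385 and 244 FPKM for the last, which is on the opposite strand. As deposited all 3 genes were lowest in Mu_E_3, and on the recomputed scale all 3 were highest there, for example 126, 109 and 196 FPKM for evm.TU.CM024097.1.117.

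The run evm.TU.CM024165.1.159 to evm.TU.CM024165.1.161 was on the minus strand with gaps of 73 and 251 bp. evm.TU.CM024165.1.159 had 79.9, 64.2 and 21.1 FPKM, evm.TU.CM024165.1.160 had 63.4, 40.4 and 8.52 FPKM and evm.TU.CM024165.1.161 had 123.3, 69.9 and 16.01 FPKM. Each was highest in Mu_E_1 and lowest in Mu_E_3 on both scales. The only promoter peak of the run lay at -1177 to -1170 bp from the start of evm.TU.CM024165.1.161, the first gene in the direction of transcription, with fold enrichments of 7.21, 11.7 and 7.49. The starts of the other 2 genes had no peak within 2 kb.

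The run evm.TU.CM024101.1.275 to evm.TU.CM024101.1.279 held 5 genes on the plus strand over 19655 bp, of which 4 were exactly 1131 bp long. None of the 5 had a promoter peak in any library. evm.TU.CM024101.1.278 had 144, 366 and 84.6 FPKM, evm.TU.CM024101.1.277 had 167, 305 and 69.1 FPKM, and evm.TU.CM024101.1.276 had 53.5, 283 and 58.1 FPKM. Each of the 5 genes was highest in Mu_E_2 on both scales. evm.TU.CM024101.1.275 and evm.TU.CM024101.1.276 had the same number of fragments in Mu_E_1 (246), and the next gene, on the other strand, was also intronless and 1131 bp long. Of the 9 annotated intronless genes of this length, 4 were among the 200. Only uniquely mapped reads were counted, so if these genes are near-identical copies their single levels are uncertain, and their sequences were not compared here. The paper also kept only ATAC-seq reads of high mapping quality, so the lack of called peaks at such copies would be uncertain too.

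The run evm.TU.CM024142.1.179 to evm.TU.CM024142.1.181 had nearly all its RNA in 1 crab. In fragments, evm.TU.CM024142.1.179 had 1, 0 and 3946 in Mu_E_1, Mu_E_2 and Mu_E_3, evm.TU.CM024142.1.180 had 2, 0 and 1897, and evm.TU.CM024142.1.181 had 1, 0 and 3537. A count of 0 allows up to 3 fragments. In Mu_E_3 they stood at 450, 232 and 372 FPKM. All 3 genes nevertheless had a promoter peak in all 3 crabs. The summit nearest to evm.TU.CM024142.1.180 lay at -142, -153 and -143 bp, with fold enrichments of 5.45, 6.25 and 4.73, and so was no higher in the crab that had the RNA. At evm.TU.CM024142.1.181 the fold enrichment was 3.68, 3.27 and 5.41, and at evm.TU.CM024142.1.179 it was 2.88, 3.12 and 2.99. The RNA and ATAC-seq values come from parts of the same muscle sample, and with 1 crab on 1 side no test of the difference can be made.

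**Figure D5:**
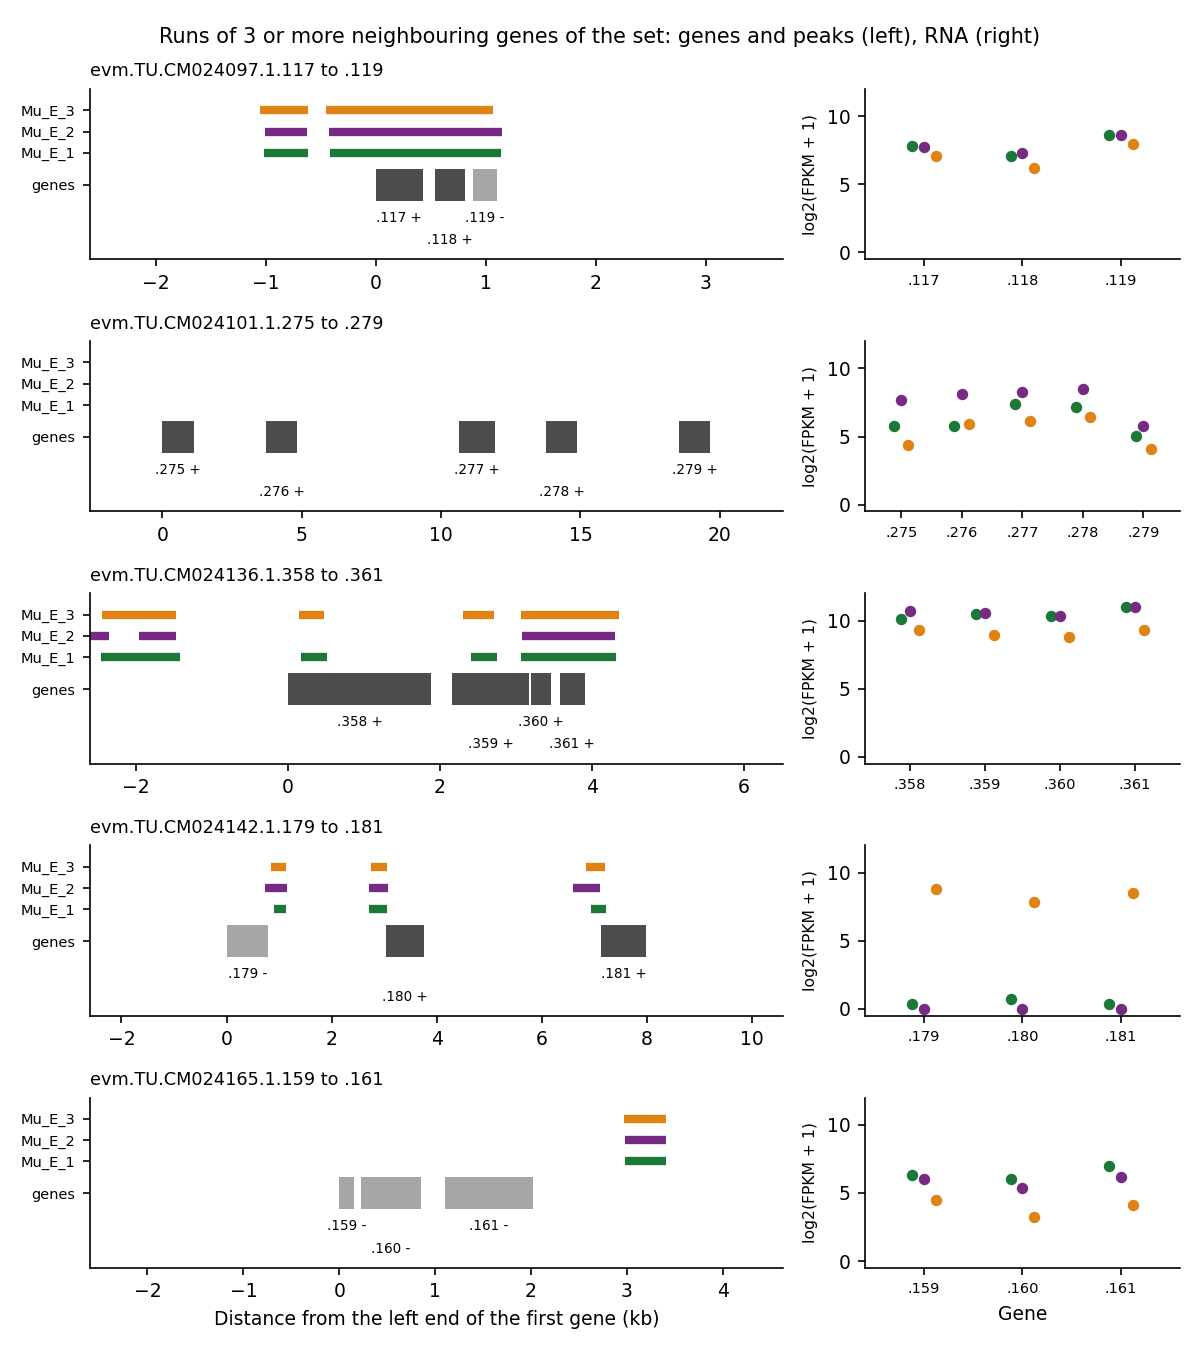
On the left, each row shows a run of 3 or more adjacent genes of the set (dark boxes plus strand, light boxes minus strand) with the ATAC-seq peaks of the 3 libraries as bars, against distance in kb from the left end of the first gene, and on the right log2(FPKM + 1) of each gene in each library (Mu_E_1 green, Mu_E_2 purple, Mu_E_3 orange). The run evm.TU.CM024101.1.275 to evm.TU.CM024101.1.279 has no called peak, while evm.TU.CM024142.1.179 to evm.TU.CM024142.1.181 has peaks in all 3 libraries and nearly all its RNA in Mu_E_3.

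The crabs differed in the level of these genes, and the direction depended on the scale. On the deposited scale 99 of the 200 genes were highest in Mu_E_2, 74 in Mu_E_1 and 27 in Mu_E_3, and 140 were lowest in Mu_E_3. Of the annotated genes at 1 FPKM or more in every library, 49.9% were lowest and 28.1% highest in Mu_E_3. With FPKM recomputed on the fragments of each library, 95 of the 200 were highest in Mu_E_3 and 68 lowest there, against 75.0% and 10.8% of the annotated genes at 1 FPKM or more in every library. The median difference in log2(FPKM + 1) between Mu_E_3 and Mu_E_1 was -1.07 in the 200 and -0.72 in the spliced genes of like FPKM as deposited, and 0.23 and 0.58 on the recomputed scale. The difference between the 2 groups of genes was -0.35 on both scales, and between Mu_E_3 and Mu_E_2 it was -0.33 on both. Between Mu_E_2 and Mu_E_1 it was -0.04. Relative to spliced genes of like FPKM, the intronless genes were thus lower in Mu_E_3 than in the other crabs, in 1 library and without a test. The 200 genes were chosen on the mean of these same deposited values, so this is a description. The scales differ by 1 factor per library, which moves both groups of genes nearly equally. Their agreement is therefore no separate evidence.

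The spread between crabs was also wider than in spliced genes. The median SD of log2(FPKM + 1) over the 3 libraries was 0.91 in the 200, 0.71 in the spliced genes of like FPKM and 0.55 in all annotated genes at 1 FPKM or more in every library. Without Mu_E_3 the median for the 200 was 0.34. On the recomputed scale the 3 medians were 0.64, 0.62 and 0.66, so the wider spread of the 200 was hardly seen there. That scale itself set expressed annotated genes higher in Mu_E_3 than in Mu_E_1, by a median of 0.81 in log2. With each library of deposited values centred on the median of expressed genes, the median SD of the 200 was 0.85. The centred spread of the spliced genes was not computed. The mean FPKM that chose the genes rests on the same values, and a gene high in 1 crab enters the set more easily.

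A range above 3 on the log2(FPKM + 1) scale was found for 26 of the 200 (13%), against 2.27% of all annotated genes and 9.51% of the spliced genes of like FPKM. Of these 26, 9 were highest in Mu_E_1, 10 in Mu_E_2 and 7 in Mu_E_3. On the recomputed scale 21 of the 200 (10.5%) passed that range, against 3.41% of all annotated genes, and 15 of the 21 were highest in Mu_E_3, 4 in Mu_E_1 and 2 in Mu_E_2. The share of spliced genes of like FPKM was not computed on the recomputed scale. All annotated genes are not a group of like level, since 10684 of the 21314 were below 1 FPKM in Mu_E_1 as deposited. Both scales shared 16 genes. evm.TU.CM024166.1.169 had 1149, 8.62 and 9.08 FPKM, high in Mu_E_1, and evm.TU.CM024111.1.457 had 143, 437 and 23.8 FPKM, high in Mu_E_2. evm.TU.CM024101.1.90 had 6.92, 8.27 and 139 FPKM, high in Mu_E_3. These 3 were chosen after their values were seen. On the recomputed scale the same crab was highest for each of the 3. The first 2 had a promoter peak in all 3 libraries and the last had none in any.

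The 3 genes with the smallest spread had moderate levels. evm.TU.CM024117.1.230, of 153 bp, had 78.8, 76.0 and 80.9 FPKM. evm.TU.CM024100.1.378, of 2460 bp, had 46.9, 49.9 and 45.3 FPKM, and evm.TU.CM024148.1.57, of 1188 bp, had 55.9, 59.8 and 63.2 FPKM. The last 2 had no promoter peak in any library, and the first had a peak within 2 kb in all 3 but none over its start. They were even on the deposited scale only. On the recomputed scale evm.TU.CM024117.1.230 had 45.2, 39.1 and 115.8 FPKM.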

How the data were processed

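Muscle of 3 molt-period crabs was measured by RNA-seq and ATAC-seq. Per the labels and methods, RNA reads were aligned with HISAT2 2.0.5, and uniquely mapped fragments were counted and turned into FPKM with featureCounts 1.5.0-p3. The authors deposited these FPKM values for all genes with gene positions, exon lengths and strands. ATAC-seq reads were aligned with BWA and filtered by mapping quality, and peaks were called per sample with MACS2. The deposited peak lists give for each summit a score, a fold enrichment (ratio over local background), the −log10 of the p-value and of the q-value, and the summit offset in bases. Genome coordinates are those of the assembly used by the authors, and no genome of that build was used here. The table has no columns of other series (0).

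Genes whose ID marks the assembly's own annotation and whose length equalled their span were ranked by mean FPKM, leaving out the 100 most abundant annotated genes, and the first 200 were kept. The members and lists were chosen with earlier results of these data known. Fragments were recovered from FPKM times length, and 100% of values above 0 were whole within 0.05. A peak counted at an overlap of 1 bp. Spliced genes of like FPKM were averaged over 10 bins of the 200 genes' mean FPKM. No p-value is given for RNA levels, which the choice used. Shares of genes were compared over the 3 libraries of each assay with exact two-sided sign-flip permutation tests, which cannot go below 0.25, and p-values measure only the spread between these samples. Counting error is large in the 5 genes with under 10 fragments in a library. Peak files hold no read counts, so the depth behind a single peak is unknown. The paper reports the fewest mapped ATAC-seq reads for Mu_E_2, and peaks were not equalised for depth. Named genes were the 10 highest by mean FPKM, the 3 with the smallest and the 3 with the largest SD, the 5 with the strongest promoter peaks, the 3 most abundant without one, the shortest, the longest, those at the bounds and those in runs of 3 or more. Members of the study's own gene lists, which the rule also named, are not reported, because those lists are its findings. The code was tested on simulated data. Python 3.11.15, numpy 2.4.6, pandas 2.3.3, scipy 1.17.1 and matplotlib 3.10.9 were used.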

Additional observations from a re-analysis of the deposited data

How the results depend on the processing

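The share of the 200 genes with a promoter peak (58.8%) changed with the definition, to 49.2% with 1 kb, 43.8% with 500 bp and 33.3% over the start base, 50.8% in the 2 kb upstream only, 48.7% when q-values had to be at or below 1e-05, 49% with a peak in all 3 libraries and 67% in at least 1. It was 49.3% in the 75 genes with no start of another listed gene within 4 kb and 51.7% when genes were chosen on fragments, and, in an alternative chosen after seeing the data, 65.5% without genes that have a same-strand neighbour upstream. Leaving out 1 library gave 57% to 62%. The difference from other intronless genes stayed positive in all 14 alternatives (25.6 to 37.4 percentage points), and that from spliced genes of like FPKM negative in all 24 (-9.93 to -1.67). It was -1.67 against the nearest spliced gene in FPKM (exact permutation p = 0.75), -1.95 without genes that have an upstream neighbour (exact permutation p = 0.5), -5.19 to -2.27 leaving out 1 ATAC-seq library, and -8.06 to -3.46 with genes chosen without 1 RNA-seq library, also chosen after seeing the data. The widest differences from spliced genes were -9.93 ± 4.08 with genes chosen on fragments and -9.70 ± 6.06 without another start within 4 kb. A choice on recomputed FPKM kept 183 of the 200 genes, one on fragments 137 and choices without 1 RNA-seq library 178 to 184.

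The median FPKM (71.3) was 54.1 on the fragments of each library and 66.2 to 81.0 without 1 library. The median SD of log2(FPKM + 1) of 0.91 ranged from 0.34 (without Mu_E_3) to 1.02 and was 0.92 with a pseudocount of 0.1. It was 0.85 with each library centred on the median of expressed genes and 0.64 on the recomputed scale. The 133 genes with a neighbour within 1 kb became 2 when only overlap counted and 140 with added genes. The 85 with a same-strand upstream neighbour, a count added after seeing the data, ranged from 59 to 98. The 26 genes with a range above 3 on the log2 scale were 21 on the recomputed scale, also added after seeing the data. The ratio of summit densities ranged from 3.55 to 3.75. Of the 38 genes named by rule, leaving out replicate 1, 2 or 3 moved the mean FPKM of 2, 4 and 3 genes by over 1.5 times, and the recomputed scale moved that of 6 genes by more than 1 SD. No paired analysis was possible because the labelled groups are the RNA-seq and ATAC-seq libraries, which hold different quantities. The differences between groups of genes were taken within each library. Depth, the number of crabs and the missing gene names limit all values.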
